A study of Drosophila melanogaster with 12 samples.

Results

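Disc-restricted genes are described here as the 42 genes, of 17807 in the deposited tables, chosen by their control levels alone, an average of at least 20 CPM in control wing imaginal discs and of at most 0.5 CPM in control salivary glands of Drosophila melanogaster larvae. Both averages were taken over 3 libraries, and CPM is the count of a gene divided by the total gene count of its library and multiplied by 1000000. The levels in controls chose the genes and are therefore given as a description, without a test. What the libraries of mutant-labelled larvae add is whether these genes stayed active in the disc and stayed low in the gland.

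The wing imaginal disc is an epithelial sac of dividing diploid cells that forms the adult wing and the dorsal thorax. It is divided into regions by transcription factors and by secreted signals. The larval salivary gland is built of large polyploid cells that replicate their DNA without dividing and, late in larval life, fill with glue proteins. SetDB1, encoded by egg, and Su(var)3-9 are methyltransferases of lysine 9 of histone H3, a mark of heterochromatin that goes along with gene silencing.

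Polyadenylated RNA was sequenced from both tissues at larval stage L3, in 4 groups of 3 libraries, from flies kept at 25 °C. Controls were OregonR larvae. Mutant-labelled larvae carried the alleles egg_1473 and Su(var)3-9_06, labelled as knock-outs of SetDB1 and Su(var)3-9. Each library held RNA of 25 glands or of 25 pairs of discs, so animals were pooled, and the sex of the larvae was not given in the sources used here. Gland RNA was passed over oligo-dT beads a second time and disc RNA was not, so tissue and mRNA enrichment cannot be told apart in any comparison between tissues. The protocol speaks of technical replicates, and p-values then measure only the spread between these libraries. In bulk tissue, fewer cells of a type and less RNA per cell cannot be told apart.

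Libraries held 17418224 to 57591665 gene counts, and 3 counts came to 0.0521 to 0.172 CPM. Su(var)3-9 was lower in mutant-labelled discs (25.2 ± 0.510 to 3.94 ± 0.762 CPM, mean ± SD, n = 3) but higher in mutant-labelled glands (2.57 ± 0.398 to 76.9 ± 20.1 CPM), against the label of the gland libraries, so groups are called mutant-labelled throughout and directions in glands rest on that label. egg did not pass the test in either tissue (edgeR adjusted p = 0.699 in discs and 0.851 in glands). Gland libraries were rich in the 7 gland markers, 6 glue genes of the Sgs family and Eig71Ee (summed level 312853 to 344366 CPM), and disc libraries in the wing-disc markers vg, ap, nub, rn, zfh2, wg and en (1671 to 2389 CPM). The summed level of 5 fat-body markers was 10921 to 16531 CPM in control glands and 21570 to 27144 CPM in mutant-labelled glands.

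The members were at the low end of the genes at 20 CPM or more in control discs. Their median there was 28.0 CPM, against 76.1 CPM for the other such genes with a gene model. Control disc means of the members ran from 20.4 to 39.6 CPM, and none of the 7 wing-disc markers was among them. The selector gene vg, needed to make a wing, stood at 3.12 CPM in control glands, and the homeobox gene en at 1.17 CPM. These levels were 0.971% and 1.02% of their levels in control discs. Of 4166 genes at 40 CPM or more in control discs, 0 were at 0.5 CPM or less in control glands, and the lowest gland level among them was 0.543 CPM. Members themselves stood in control glands at 0.291% to 2.36% of their disc level (median 1.34%).

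**Figure D1:**
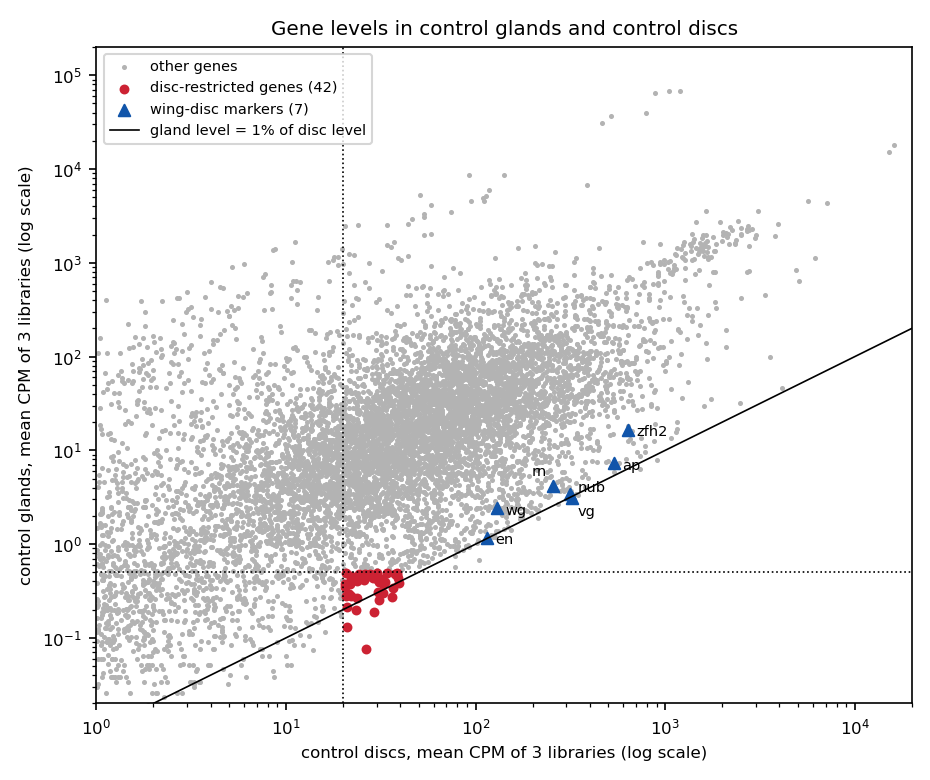
Mean CPM in control glands against mean CPM in control discs, both on log scales, for genes at 1 CPM or more in control discs that had a count in control glands. The 42 disc-restricted genes (red) fill the corner between 20 and 39.6 CPM in discs and below 0.5 CPM in glands (dotted lines), and the wing-disc markers (blue triangles) lie above the corner, near the line where the gland level is 1% of the disc level or up to 2.60% of it (zfh2).

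The low gland signal of disc genes was of similar relative size in 5 of the 6 gland libraries. In control glands 1 and 3, the median wing-disc marker stood at 0.953% and 0.962% of its mean level in control discs, and the median disc-restricted gene at 0.980% and 0.953%. Control glands 2 stood apart, at 2.01% for the markers and 2.12% for the disc-restricted genes. The rule bounds the percent of the disc-restricted genes in control glands, so their nearness to the markers there is a description only. In the 3 mutant-labelled gland libraries the markers stood at 0.801% to 0.939% of their mutant-labelled disc level and the disc-restricted genes at 0.824% to 0.866%. In the other direction, the median gland marker stood in disc libraries at 1.16% to 1.96% of its gland level. Whether disc material or reads carried between libraries contribute to the gland counts of the 42 genes was not tested. Without control glands 2 the same rule gave 81 genes, among them all 42, and on TMM-scaled library sizes it gave 3, so the length of the list depends on that library and on the scale.

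**Figure D2:**
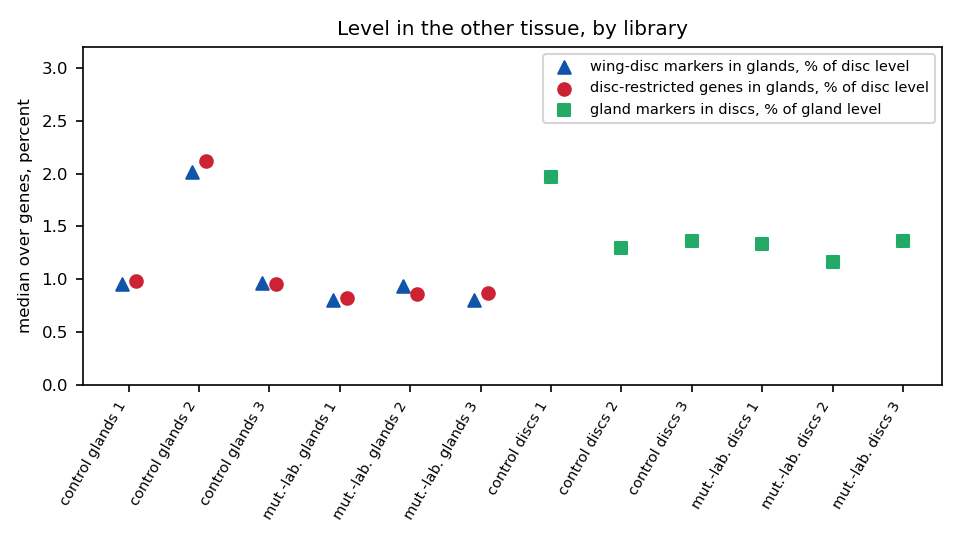
Median level in the tissue where a gene set is low, as a percent of its mean level in the tissue where it is high within the same genotype label, for each library. Wing-disc markers (triangles) and disc-restricted genes (circles) sit near 1% in the gland libraries except control glands 2, where both are near 2%, and gland markers (squares) sit at 1.16% to 1.96% in the disc libraries.

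Thresholds cut through a continuous range. Just inside the floor in discs were rec (20.42 CPM), CG8170 (20.45 CPM) and asRNA:CR44155 (20.7 CPM), and just outside CG3618 (19.9 CPM), CR33255 (19.8 CPM) and C15 (19.6 CPM). At the ceiling in glands, CG12268 (0.494 CPM), CG31055 (0.493 CPM) and l(2)03659 (0.490 CPM) were just inside, and lncRNA:CR33938 (0.514 CPM), Cpr64Aa (0.527 CPM) and ppk29 (0.537 CPM) just outside.

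Transcription factors made up the largest class with a known role, 13 of the 42. They include so, which acts in eye development, dac, which acts in eyes and legs, the Six-family homeobox gene Optix, and tup, a LIM-homeobox gene that patterns the notum. Doc2 and Doc3 encode T-box factors, knrl an orphan nuclear receptor related to knirps, opa a zinc-finger factor related to vertebrate Zic, and Sox102F a Sox-family factor. sc is a proneural gene that starts sensory bristles, sr makes the tendon cells to which muscles attach, and E(spl)m7-HLH and E(spl)mdelta-HLH are repressors switched on by Notch. The signalling class held aos, a secreted inhibitor of the EGF receptor, and the neuropeptide receptor genes Dh31-R and CCKLR-17D3. Of the remaining members, 3 encode cuticle proteins (Cpr49Ah, Cpr65Ec and Cpr66D), 4 are noncoding, and 3, rec among them, were classed under chromosome and cytoskeleton. The others are 2 lipid enzymes, a transporter and 13 genes with another role or none given here. These classes were assigned from textbook roles after the list was known.

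Per kilobase of exon, control disc levels of the 42 ran from 2.93 CPM per kb for sr to 46.4 CPM per kb for Cpr65Ec. Next below Cpr65Ec came lncRNA:CR44334 at 44.8 CPM per kb and E(spl)m7-HLH at 31.5 CPM per kb. The coefficient of variation between the 3 libraries had a median over the 42 of 8.58% in control discs, 15.2% in mutant-labelled discs, 57.3% in control glands and 37.5% in mutant-labelled glands. Control glands 1 and 2 held 19775440 and 17418224 gene counts, against 43909478 to 57591665 in the other gland libraries. Depth and genotype label therefore cannot be told apart in the spread of gland values. Gland values of a member rested on 0 to 28 counts in a control library and 0 to 60 in a mutant-labelled library, against 131 to 1599 counts in disc libraries.

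Mutant-labelled libraries took no part in choosing the genes, and in them the tissue difference was present for each of the 42. All 42 were higher in mutant-labelled discs than in mutant-labelled glands (edgeR's quasi-likelihood test with Benjamini-Hochberg adjustment over 9847 genes, largest adjusted p 2.09e-05), where 82.8% of all genes tested were called and 42.2% were called higher in discs. The log2 differences ran from 3.57 to 6.32, that is 11.9-fold to 80.03-fold, with a median of 5.37. These folds use TMM scaling, which gave gland libraries factors of 0.562 to 0.708 and disc libraries 1.58 to 1.64 when all 12 were scaled together, and are smaller than the ratios of plain CPM. The count stayed at 42 when any 1 of the 6 libraries was left out. The rule had required a wide gap between the same 2 tissues in controls. The share over all genes, most chosen by no such gap, is therefore not a matched background for this count. Of the 42, 33 met both limits of the rule again in the mutant-labelled libraries, 34 met the disc floor and 41 the gland ceiling. The same rule applied to the mutant-labelled libraries gave 112 genes, most of them not among the 42.

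The widest tissue difference in mutant-labelled larvae was that of lncRNA:CR45232, a noncoding RNA. It stood at 35.0, 47.6 and 46.8 CPM in mutant-labelled disc libraries 1 to 3 and at 0.104, 0.219 and 0.251 CPM in the gland libraries (log2 6.32 ± 0.29, SE, adjusted p = 3.41e-07). Cpr49Ah (6.09 ± 0.38, adjusted p = 1.63e-06) and CCKLR-17D3, a receptor gene of the cholecystokinin type (6.08 ± 0.27, adjusted p = 2.98e-07), followed. The narrowest was that of CG10589, at 39.5, 29.5 and 33.8 CPM in discs and 0.764, 0.914 and 1.37 CPM in glands (log2 3.57 ± 0.26, adjusted p = 3.69e-06). CG5065, an enzyme of the fatty acyl-CoA reductase family, differed by 4.15 ± 0.39 (adjusted p = 1.80e-05) and Dh31-R by 4.26 ± 0.33 (adjusted p = 6.14e-06). tup (4.41 ± 0.22, adjusted p = 4.72e-07) and l(2)03659 (4.46 ± 0.36, adjusted p = 6.75e-06) completed the lowest 5.

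**Figure D3:**
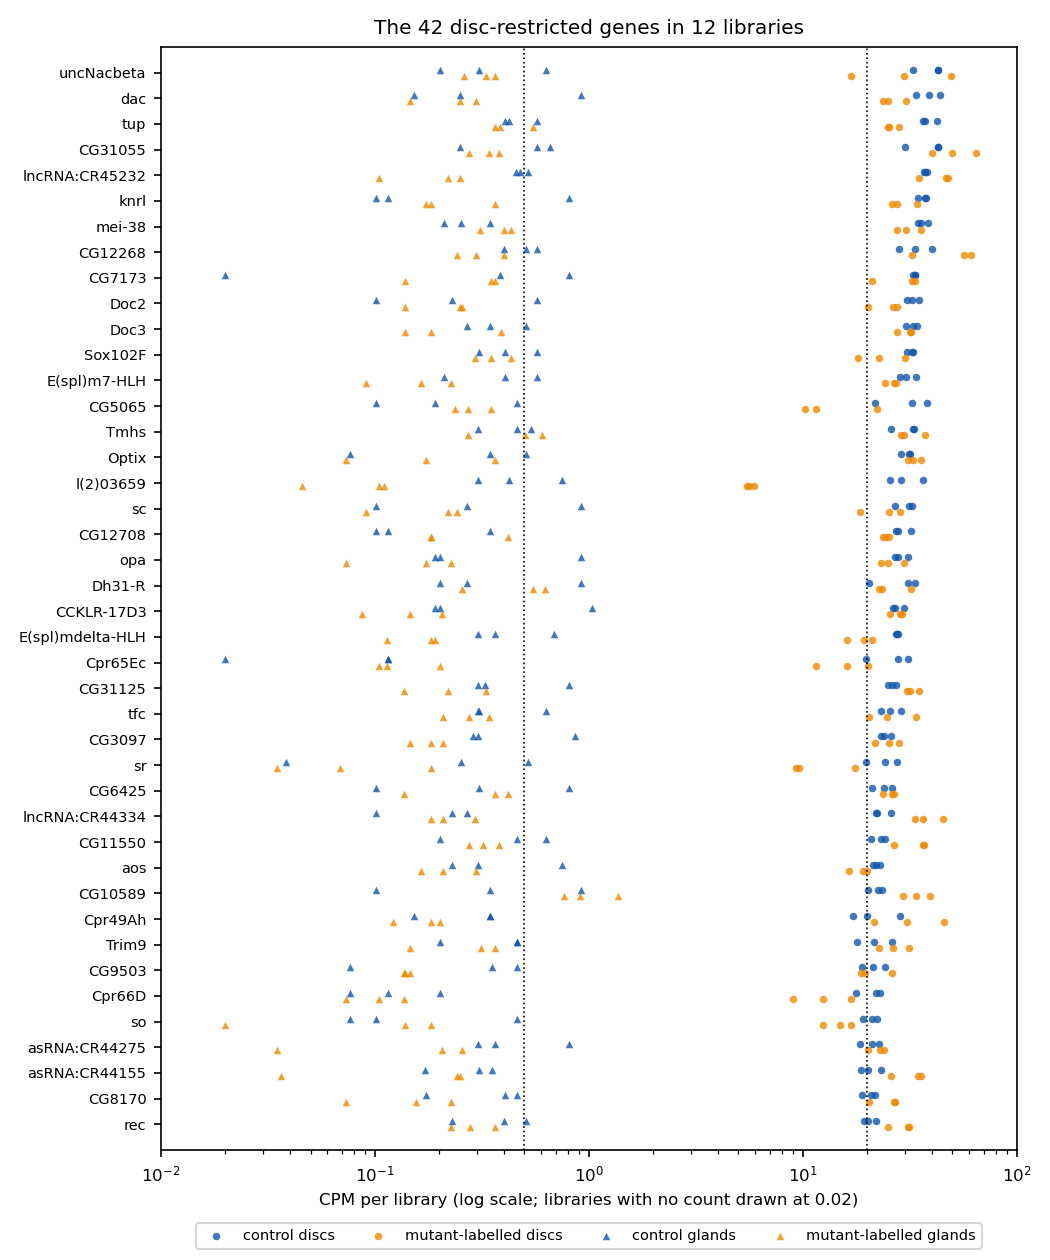
CPM on a log scale for each of the 42 disc-restricted genes in each of the 12 libraries, with discs as circles, glands as triangles, controls in blue and mutant-labelled libraries in orange, and dotted lines at 0.5 and 20 CPM. Disc and gland values stay apart for all 42 genes in both genotypes, and l(2)03659 (5.50 to 5.94 CPM in mutant-labelled discs) and CG10589 (up to 1.37 CPM in mutant-labelled glands) come closest to the space between.

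In wing discs, 6 of the 42 genes were higher and 10 lower in mutant-labelled than in control libraries, and 26 did not pass (edgeR's quasi-likelihood test, adjusted p of 0.05 over 9379 genes). Over all genes tested, 31.3% passed, 16% higher and 15.2% lower. Among the other 5503 genes at 20 CPM or more in control discs, 29.7% passed, 13.4% higher and 16.3% lower. The 16 called among 42 were thus near the share called among genes at large. The control disc libraries also served the rule, which set a floor under their mean. In the same discs the summed level of the 7 wing-disc markers was 2215 to 2389 CPM in control and 1671 to 2037 CPM in mutant-labelled libraries, and that of 5 hemocyte markers 26.0 to 40.2 and 9.67 to 13.1 CPM. All these markers had counts in both groups, and their part in the changes of the 42 genes was not tested. The median log2 change of the 42 was -0.080, beside 0.00016 over all genes tested, and l(2)03659 and CG5065 were the 2 called genes whose log2 change was 1 or more in size.

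**Figure D4:**
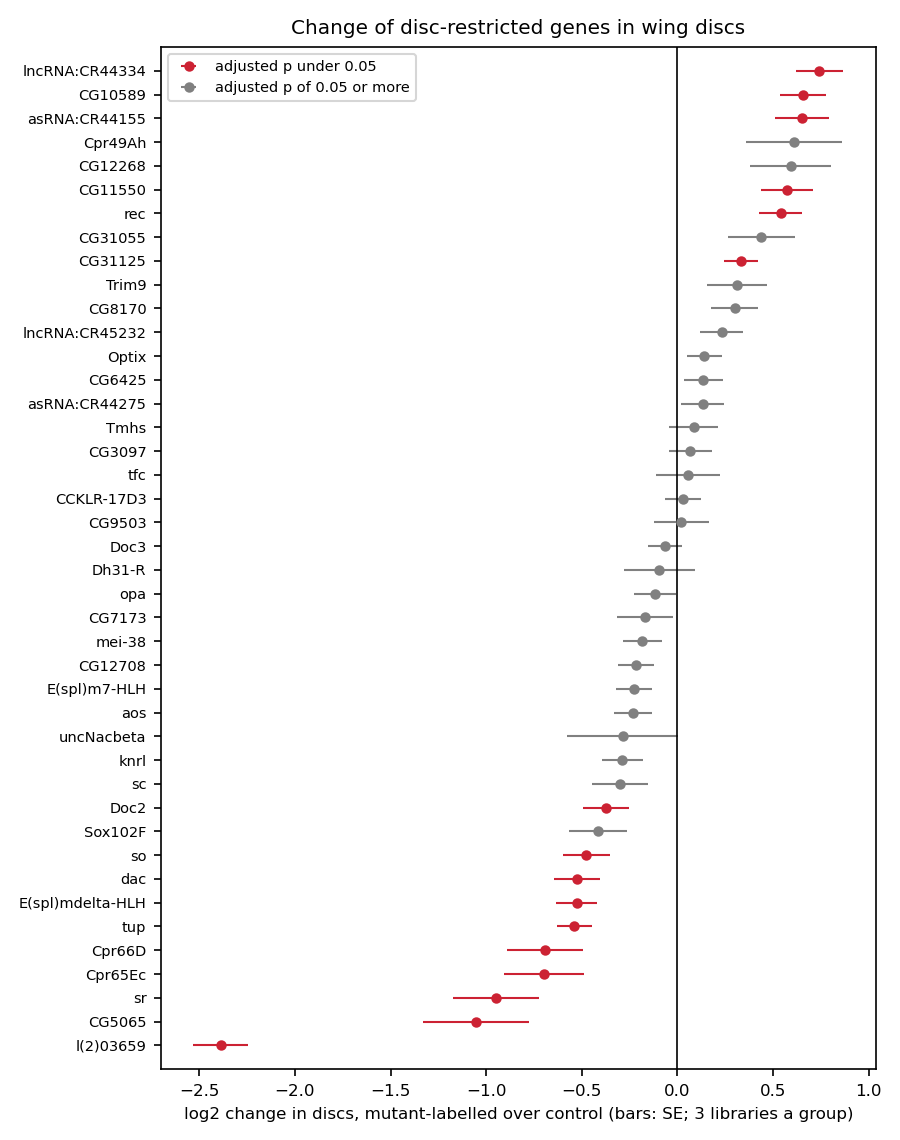
Log2 change in wing discs, mutant-labelled over control, for the 42 disc-restricted genes, with bars for the SE from 3 libraries a group and red for an adjusted p under 0.05. l(2)03659 (-2.39) lies apart from the rest, which run from -1.05 (CG5065) to 0.74 (lncRNA:CR44334).

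The steepest fall was that of l(2)03659, a gene of the ABC transporter family on chromosome 2R (9390165 to 9395281, plus strand, BDGP6). It stood at 36.4, 25.6 and 28.9 CPM in control disc libraries 1 to 3 and at 5.61, 5.94 and 5.50 CPM in mutant-labelled ones. The groups did not overlap, and the fall was 5.23-fold (log2 -2.39 ± 0.14, SE, adjusted p = 9.84e-07). With each library left out in turn the log2 change stayed between -2.49 and -2.24. Its exons share no base with another gene.

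Among transcription factors, 6 of 13 were lower, 0 were higher and 7 did not pass in mutant-labelled discs, with a median log2 change of -0.37. Over all genes tested 15.2% were lower and over the other genes at 20 CPM or more 16.3%, and because the class was drawn up after the list was known, nothing is read from its count. sr had 19.8, 27.5 and 24.1 CPM in control discs and 9.34, 9.56 and 17.5 CPM in mutant-labelled discs, each mutant-labelled value below each control (log2 -0.95 ± 0.23, adjusted p = 0.00997). tup went from 36.5, 42.3 and 37.2 CPM to 25.0, 28.1 and 25.2 CPM (log2 -0.54 ± 0.091, adjusted p = 0.00156). In tup as in sr the groups were apart.
dac fell by 0.52 ± 0.12 on the log2 scale (38.7 ± 4.95 to 26.5 ± 3.58 CPM, adjusted p = 0.00873). E(spl)mdelta-HLH fell by 0.53 ± 0.11 (27.6 ± 0.251 to 18.8 ± 2.51 CPM, adjusted p = 0.00440). so fell by 0.48 ± 0.12 (20.9 ± 1.57 to 14.7 ± 2.21 CPM, adjusted p = 0.0150) and Doc2 by 0.37 ± 0.12 (32.6 ± 2.17 to 24.7 ± 3.99 CPM, adjusted p = 0.0364). In these 4, too, the groups did not overlap. Genes ranked by their change in discs were taken only from called members whose groups were apart. Nothing is therefore read from the lack of overlap, here or among the genes that rose.

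The other 7 transcription factor genes, none of which passed, had log2 changes from -0.41 ± 0.15 (Sox102F, adjusted p = 0.0606) to 0.14 ± 0.092 (Optix, adjusted p = 0.274). Related neighbours differed in call. Doc3, which lies 5.44 kb from Doc2 on chromosome 3L with 1 gene between, had 32.7, 30.5 and 34.0 CPM in control discs and 27.7, 32.1 and 31.6 CPM in mutant-labelled discs (log2 -0.066 ± 0.089, adjusted p = 0.611). E(spl)m7-HLH, 38.4 kb from E(spl)mdelta-HLH in the Enhancer of split cluster on 3R, had a log2 change of -0.23 ± 0.096 (adjusted p = 0.0996). The differences between the changes of such neighbours were not tested.

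From the lists of genes chosen with earlier results known, the wing-selector list held 4 members, of which 3 were lower (dac, Doc2 and tup) and 0 higher in mutant-labelled discs, beside 15.2% lower and 16% higher over all genes tested. The call of Doc2 was lost with any of 4 libraries left out. The list of Notch, EGF, FGF and JAK pathway genes held 3, of which 1 was lower (E(spl)mdelta-HLH). aos stood at 22.1 ± 0.782 CPM in control and 18.5 ± 1.85 CPM in mutant-labelled discs (log2 -0.23 ± 0.10, adjusted p = 0.109). sc, the 1 member from the proneural list, went from 30.3 ± 2.93 to 24.2 ± 5.11 CPM (log2 -0.30 ± 0.14, adjusted p = 0.141). The neuropeptide receptor genes did not pass either, Dh31-R at -0.093 ± 0.19 (adjusted p = 0.735) and CCKLR-17D3 at 0.030 ± 0.094 (adjusted p = 0.832).

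Cuticle protein genes, which encode chitin-binding proteins of the exoskeleton, differed among themselves. Cpr66D fell from 17.7, 22.0 and 22.9 CPM to 12.4, 9.03 and 16.8 CPM (log2 -0.69 ± 0.20, adjusted p = 0.0241), with no overlap. Cpr65Ec fell from 19.8, 28.0 and 31.0 CPM to 16.2, 11.6 and 20.3 CPM (log2 -0.70 ± 0.21, adjusted p = 0.0291), where the highest mutant-labelled library lay above the lowest control. Cpr49Ah had 28.4, 17.2 and 20.03 CPM in control and 30.9, 46.0 and 21.6 CPM in mutant-labelled discs (log2 0.61 ± 0.25, adjusted p = 0.0899). Of the pair of fatty acyl-CoA reductase genes, CG5065 fell from 21.8, 32.5 and 38.1 CPM to 10.2, 11.6 and 22.2 CPM (log2 -1.05 ± 0.28, adjusted p = 0.0165), with overlapping groups. CG12268 had 40.1, 33.6 and 28.02 CPM in control and 61.02, 56.8 and 32.5 CPM in mutant-labelled discs (log2 0.59 ± 0.21, adjusted p = 0.0553).

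The 6 genes that rose were 2 noncoding genes, 3 protein-coding genes known by CG numbers, and rec. lncRNA:CR44334 rose most, from 22.1, 25.8 and 22.1 CPM to 45.0, 33.5 and 36.4 CPM (1.67-fold, log2 0.74 ± 0.12, adjusted p = 0.00147). CG10589 rose from 20.3, 23.6 and 22.4 CPM to 39.5, 29.5 and 33.8 CPM (log2 0.66 ± 0.12, adjusted p = 0.00247). In both, each mutant-labelled library lay above each control.
asRNA:CR44155 rose by 0.65 ± 0.14 (20.7 ± 2.35 to 32.0 ± 5.38 CPM, adjusted p = 0.00587), although 87.8% of its exon bases overlap the ion channel gene rpk. CG11550 rose by 0.57 ± 0.13 (22.8 ± 1.82 to 33.3 ± 5.84 CPM, adjusted p = 0.00939) and CG31125 by 0.33 ± 0.087 (26.2 ± 1.16 to 32.5 ± 2.21 CPM, adjusted p = 0.0160). rec, which encodes an MCM-family protein needed for meiotic crossovers, rose by 0.54 ± 0.11 (20.4 ± 1.32 to 29.2 ± 3.63 CPM, adjusted p = 0.00497). Of its exon bases, 26.6% overlap alpha-Man-IIb. The groups of these 4 did not overlap.

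The disc calls were sensitive to leaving out a library, in p more than in size. The count of lower genes was 5 without control discs 2, and 6 without control discs 3, mutant-labelled discs 1 or mutant-labelled discs 2. Without control discs 2, Doc2 (adjusted p = 0.0905), CG5065 (0.0521), Cpr65Ec (0.0887), Cpr66D (0.0758), so (0.0651) and CG31125 (0.0781) no longer passed. Doc2, CG5065, Cpr65Ec and Cpr66D also missed without control discs 3 (0.0772 to 0.140), mutant-labelled discs 1 (0.0603 to 0.0734) or mutant-labelled discs 2 (0.0630 to 0.0967), and CG31125 without the last of these (0.0505). In the fits where the call was lost, the log2 change was -0.41 to -0.24 for Doc2, -1.02 to -0.85 for CG5065, -0.70 to -0.49 for Cpr65Ec and -0.67 to -0.47 for Cpr66D. It was -0.43 for so and 0.29 to 0.30 for CG31125. The other 10 calls held with every library left out. In 1 fit of all 12 libraries, which estimates 1 spread for both tissues, tup, l(2)03659 and lncRNA:CR44334 were the 3 that passed. No share over all genes was taken for these alternative fits.

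In mutant-labelled glands the disc-restricted genes stayed low. Their mean levels were 0.0865 to 1.01 CPM (median 0.228), against 0.0766 to 0.494 CPM (median 0.400) in control glands, where the rule set the ceiling. On plain CPM the mutant-labelled mean was below the control mean for 34 genes and above it for 8. No share over all genes was taken for this split. The TMM factors were 0.562 to 0.618 in mutant-labelled glands and 0.629 to 0.708 in control glands, and plain CPM leaves this difference in. Nothing is therefore read from the split. Control glands 2, the library that stood apart, had 26 of the 42 above 0.5 CPM, against 5 in control glands 1, 1 in control glands 3 and 2 or 3 in each mutant-labelled library. Of the 42, 32 had enough counts to be tested, and of these 1 was lower and 0 were higher (3 at an unadjusted p under 0.05, and by DESeq2 likewise 1 lower and 0 higher). Among all 9441 genes tested in glands, 7.26% were higher and 5.91% lower at an adjusted p under 0.05. The rule capped the control side of this test, and the low-count filter drew partly on the mutant-labelled libraries. Nothing is therefore read from the counts of members called in glands. In the fit of all 12 libraries 3 of the 42 were lower (l(2)03659, lncRNA:CR45232 with adjusted p = 0.0164 and E(spl)mdelta-HLH with 0.0192) and CG10589 was higher (0.0286). Beside these levels, the summed level of the wing-disc markers was 30.3 to 51.3 CPM in control and 21.6 to 26.6 CPM in mutant-labelled glands, and that of 5 trachea markers 31.6 to 41.9 and 24.0 to 25.7 CPM. The 5 neuron and glia markers summed to 18.2 to 25.7 and 36.5 to 49.2 CPM, of which Syt1 made up most (18.4 ± 3.32 and 33.9 ± 7.68 CPM), while elav stood at 1.32 ± 0.871 and 7.14 ± 1.37 CPM, brp at 1.57 ± 1.03 and 0.490 ± 0.253 CPM and repo at 0.114 ± 0.101 and 0.113 ± 0.0375 CPM. The gland markers summed to 312853 to 314918 CPM in control and 325614 to 344366 CPM in mutant-labelled glands. The fat-body markers given above were higher in the mutant-labelled glands. The part of these markers in the gland levels of the 42 genes was not tested.

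**Figure D5:**
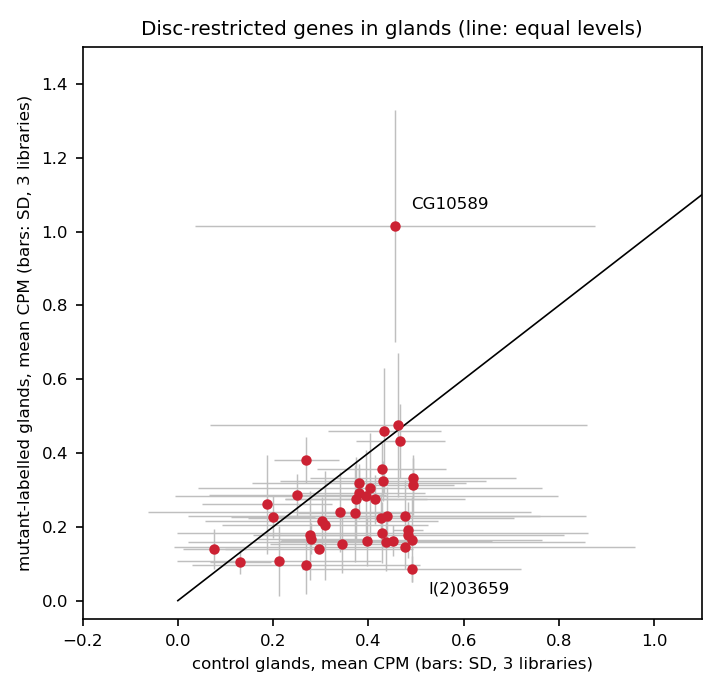
Mean CPM of the 42 disc-restricted genes in mutant-labelled glands against control glands, with bars for the SD of 3 libraries and a line of equal levels. CG10589 (0.455 to 1.01 CPM) lies above the line and l(2)03659 (0.490 to 0.0865 CPM) below it, and the SD in control glands is wide for most genes.

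CG10589 was the 1 gene above 0.5 CPM on average in mutant-labelled glands. It had 0.101, 0.919 and 0.345 CPM in control glands 1 to 3 and 0.764, 0.914 and 1.37 CPM in mutant-labelled glands. The groups overlapped through control glands 2, and the change did not pass (log2 1.36 ± 0.62, adjusted p = 0.207). Without control glands 2 it passed (log2 2.07, adjusted p = 0.0465, over all settings 0.0286 to 0.410). The controls of that fit rested on 2 and 18 counts of CG10589, and the rule had capped the control mean of the gene. Relative to discs, its gland level was 2.06% in controls and 2.96% in mutant-labelled larvae.

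l(2)03659 was the 1 gene called lower in glands, as it was in discs. It had 0.303, 0.746 and 0.421 CPM in control glands and 0.104, 0.110 and 0.0455 CPM in mutant-labelled glands, with no overlap (log2 -2.29 ± 0.56, adjusted p = 0.0313). The call was lost without any 1 of the 6 gland libraries (adjusted p = 0.0605 to 0.103, log2 -2.49 to -1.98). Its gland level stood at 1.62% of the disc level in controls and at 1.52% in mutant-labelled larvae, while the disc level fell 5.23-fold.

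The difference between the 2 tissues' changes was tested in a fit of all 12 libraries. It passed for 1 of the 42 genes, with a positive value of the disc change minus the gland change. Over 10185 genes, 10.1% were called at the same adjusted threshold, 4.47% in that direction and 5.62% in the other. At an unadjusted p under 0.05 there were 10 of the 42. No share over all genes was taken at that threshold, so nothing is read from this count. The rule used both control groups and capped the control gland levels, so this test is not independent of the choice of genes. The gene that passed was lncRNA:CR45232, on chromosome 2R (16297449 to 16306695, minus strand, BDGP6). It had 36.7, 37.4 and 38.1 CPM in control discs and 35.0, 47.6 and 46.8 CPM in mutant-labelled discs (log2 0.23 ± 0.11, adjusted p = 0.139). In glands it had 0.455, 0.517 and 0.479 CPM in controls and 0.104, 0.219 and 0.251 CPM in mutant-labelled libraries, which did not overlap (log2 -1.23 ± 0.50, adjusted p = 0.154). The difference was 1.41 ± 0.36 (adjusted p = 0.0250). It was lost without control glands 3 (0.0686), mutant-labelled glands 1 (0.0508), control discs 2 (0.0535) or mutant-labelled discs 2 (0.0549; over all settings 0.00803 to 0.0686).

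As to features that the rule did not use, the 42 genes were spread over the arms, with 12 on 3R, 10 on 3L, 9 on 2R, 6 on X, 4 on 2L and 1, Sox102F, on chromosome 4. Among the other genes at 20 CPM or more in control discs with a gene model, 24.3% lay on 3R, 19.5% on 3L, 20.3% on 2R, 17.5% on X, 17.2% on 2L and 0.969% on chromosome 4, beside 28.6%, 23.8%, 21.4%, 14.3%, 9.52% and 2.38% of the 42. The median gene span was 4862 bp against 3453 bp, and the median exon length 2166 bp against 2490 bp. Protein-coding genes were 38 of the 42 (90.5%) against 97.04%. Within 50 kb of each other lay Doc2 and Doc3, and E(spl)m7-HLH and E(spl)mdelta-HLH, and no other members. Exon bases were shared with no other gene in 33 of the 42, and over 10% of them were shared in 5. These were asRNA:CR44275 (98.1%, with dpn), asRNA:CR44155, rec, mei-38 (23.6%, with rush) and CG31055 (14.7%, with CG12880), whose counts are uncertain because strand use in counting was not given in the sources used here.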

How the data were processed

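The authors deposited, per the file headers, raw counts per FlyBase gene ID for each of 12 libraries. The submitters' processing notes list the tools HISAT2, cutadapt and featureCounts beside the build names dm6 and BDGP6, and versions and options are not given in the sources used here. Tables of transposable elements (12) were not used. Names, positions and exons came from the BDGP6 annotation, release 115 (97 IDs had no model).

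Genes were kept by filterByExpr defaults, scaled by TMM (trimmed mean of M-values) and tested with edgeR 4.0.16 (R 4.3.3) by the quasi-likelihood F test, without a replicate block, calling genes at an adjusted p under 0.05 (Benjamini-Hochberg, over each whole table). Each comparison of groups was fitted on its 6 libraries, and the difference of changes on all 12. CPM are plain. Log2 changes use TMM. The SE is the unshrunken log2 change divided by the square root of F. The fits were tested on simulated data.

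Libraries of a group differed beyond sampling noise (chi-square per gene 4.24 to 289). Replicate numbers were not taken as pairs. The members, lists and tests were chosen with earlier results of these data known. Genes were named by fixed ranks: level in control discs or mutant-labelled glands, change in discs, tissue difference, list membership and nearness to a threshold. Members outside these ranks (such as Cpr65Ec, Cpr49Ah, sc, Optix, CCKLR-17D3 and asRNA:CR44275) were chosen after their values were seen. Promoter motifs were planned and are not analysed here. Alternatives were RLE factors, no low-count filter, DESeq2 1.42.0, a replicate block, the 20 most abundant genes removed, all libraries in 1 fit, other membership rules and each library left out.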

Additional observations from a re-analysis of the deposited data

Results flagged for a closer look

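The change of lncRNA:CR45232 differed between the tissues (disc change minus gland change 1.41 on the log2 scale, adjusted p = 0.0250), the 1 such difference among the 42 genes that passed. Its level was higher on average in mutant-labelled than in control discs and lower in all 3 mutant-labelled gland libraries than in any control gland library, where it rested on 6 to 25 counts a library. The rule that chose the gene used its control levels and capped them in glands, so the difference is not independent of that choice.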

How the results depend on the processing

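RLE factors, removal of the 20 most abundant genes and, for discs, no low-count filter or DESeq2 left the counts of calls within 1.5 times. With all 12 libraries in 1 fit, discs gave 1 higher and 2 lower, and glands 1 higher and 3 lower. Shares over all genes were taken for the main fits only. For every other fit in this section, a change in the members cannot be told apart from a change in the calls at large. Without a low-count filter 0 genes were lower in glands. DESeq2 called 2 differences between the tissues' changes.

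Membership moved most. On TMM-scaled library sizes 3 genes met the rule, of which 0 were higher and 1 lower in discs, 0 were lower in glands, 3 were higher in mutant-labelled discs than glands, and 0 differed between the tissues' changes. At the wider limits of 10 and 1 CPM 270 genes met it, of which 51 were higher and 71 lower in discs, 7 higher and 5 lower in glands, 265 higher and 1 lower in mutant-labelled discs than glands, and 17 had a disc change above and 14 below the gland change. Over all genes tested, 16% were higher and 15.2% lower in discs, and 7.26% higher and 5.91% lower in glands. In mutant-labelled discs against glands 42.2% were higher and 40.6% lower. A disc change above the gland change was called in 4.47%, and below it in 5.62%. The wider list was also chosen on control levels, so nothing is read from its counts. The cause of the moves in membership was not tested.

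Leaving out 1 library at a time gave 29 to 81 members (29 without control glands 1 or 3, 81 without control glands 2). Among the 42 it gave 5 to 9 higher and 5 to 14 lower in discs, 0 to 1 higher and 0 to 0 lower in glands, 42 to 42 higher in mutant-labelled discs than glands, and 0 to 2 differences between the changes above and 0 to 1 below. Log2 changes in discs that did not pass and changed sign ran from -0.74 to 0.024 for uncNacbeta, -0.27 to 0.018 for CG7173, -0.11 to 0.00040 for Doc3, -0.036 to 0.17 for Tmhs, -0.28 to 0.042 for Dh31-R, -0.0063 to 0.093 for CCKLR-17D3, -0.15 to 0.21 for tfc, -0.019 to 0.18 for CG3097 and -0.14 to 0.13 for CG9503.

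Deviations of libraries with the same replicate number had correlations of 0.253, -0.105 and 0.243 in discs and -0.016, 0.462 and 0.489 in glands. The correlation was below 0 for number 2 in discs and number 1 in glands, and the numbers were not taken as pairs. In glands, numbers 2 and 3 did deviate together, and whether they share a source was not tested. With a replicate block 8 of the 42 were higher and 13 lower in discs, 0 higher and 1 lower in glands, 42 higher in mutant-labelled discs than glands, and 1 differed between the changes.

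Over single members in discs, 436 alternative values kept their side of the threshold, 32 lost it, 22 gained it and 14 changed sign. Depth limits the gland values, where 3 counts were up to 0.172 CPM and many members had few counts.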

Other observations

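Genes whose level in control glands was under 2.5% of that in control discs, whatever their disc level above 20 CPM, numbered 343 of 5545 (6.19%). Here the same control libraries were used as for the choice of members, so these counts are a description. Of the wing-selector list, 30 of 42 such genes were under 2.5%, among them vg, ap, nub, en and Dll, of the list of mitosis genes 32 of 67, among them CycB, Cdk1, polo and aurB, and of the cuticle and apical matrix list 13 of 23, among them dpy and kkv. Of the Wnt, Hedgehog and Dpp list 13 of 33 were (wg and hh among them), of the adhesion and guidance list 18 of 47, of the Notch, EGF, FGF and JAK list 9 of 24, of the trachea list 7 of 19, of the proneural list 4 of 10 and of the myoblast and muscle list 4 of 13. Of the neuronal and glial list 1 of 7 was (dac) and of the hemocyte list 1 of 13 (Ppn). None was among 26 DNA replication genes, 14 JNK and stress genes, 12 fat-body genes, 10 gland and glue genes or 2 Hox genes. The mitosis list held 0 of the 42 disc-restricted genes.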
